A study of Mus musculus with 19 samples.

Results

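The genes described here are 33 genes of endoplasmic reticulum (ER) protein folding and of the unfolded protein response, taken as the rows of the deposited count table whose symbol equals a name on a fixed list. All 33 were found among the 38887 rows of the table, and all 33 were among the 12943 genes that passed the filter on low counts. They were followed in spleen cells of mice that the study calls myeloid-derived suppressor cells (MDSC), of the polymorphonuclear kind (PMN-MDSC, CD11b+ Ly6C int Ly6G+) and of the monocytic kind (M-MDSC, CD11b+ Ly6C high Ly6G-). Newborn mice were 7 days old and adults 6 to 8 weeks old. Of the 19 RNA-seq libraries, 11 were PMN-MDSC (6 from adults, 5 from newborns) and 8 were M-MDSC (3 from adults, 5 from newborns). No treatment or genetic change is named for any group, and the labels used here do not give the strain or sex. One protocol label describes CD11b beads followed by a sort for both cell types, and another describes Ly6G bead columns for PMN-MDSC. The labels do not tie replicates to separate animals, so each p-value speaks to the spread over these libraries, possibly a technical one, and no further.

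The ER folds proteins that enter the secretory pathway, and misfolded protein there activates 3 sensors: IRE1 (gene Ern1), which splices the Xbp1 mRNA, ATF6, which is cut to release a transcription factor, and PERK (Eif2ak3), which phosphorylates the translation factor eIF2 and so favours translation of ATF4. XBP1 and ATF6 raise chaperones and degradation factors, while ATF4 and CHOP (Ddit3) raise amino acid synthesis genes and the feedback phosphatase subunit GADD34 (Ppp1r15a). Neutrophils and monocytes make granule and membrane proteins in the ER, and plasma cells are known for very high levels of the same genes. Gene-level counts do not separate spliced from unspliced Xbp1, and they do not measure sensor cleavage or phosphorylation.

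The promoters of the members are shown first because chaperones and amino acid response genes carry different letters there. RefSeq promoters (GRCm38.p6, 250 bases before to 50 after the start) were at hand for 29 of the 33 members. Sec61a1, Manf, Hyou1 and Atf6 were not matched. The ER stress response element, CCAAT followed by any 9 bases and CCACG (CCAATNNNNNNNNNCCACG, read on both strands), was present in 8 of 29 member promoters (27.6%) and in 39 of all 32851 promoters of the table (0.119%). The 8 stretches are printed 5′ to 3′ on the gene's strand, with the fixed letters of the element in capitals. CGTGG followed by 9 bases and ATTGG is the same element on the opposite strand, and Hsp90b1 holds 1 element in each orientation.
Hspa5, chr2:34772013-34772055, plus strand: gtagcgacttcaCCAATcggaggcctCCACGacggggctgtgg
Hsp90b1, chr10:86705521-86705668, minus strand: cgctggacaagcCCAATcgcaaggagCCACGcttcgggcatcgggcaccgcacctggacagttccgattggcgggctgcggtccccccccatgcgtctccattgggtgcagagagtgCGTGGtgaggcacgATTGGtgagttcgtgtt
Calr, chr8:84847063-84847105, minus strand: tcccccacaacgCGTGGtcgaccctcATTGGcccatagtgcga
Canx, chr11:50325788-50325830, minus strand: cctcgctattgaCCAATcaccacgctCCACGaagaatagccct
Pdia6, chr12:17266479-17266521, plus strand: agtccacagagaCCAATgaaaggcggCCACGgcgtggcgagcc
Dnajc3, chr14:118937815-118937857, plus strand: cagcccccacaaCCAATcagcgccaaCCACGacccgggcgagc
Creld2, chr15:88819508-88819550, plus strand: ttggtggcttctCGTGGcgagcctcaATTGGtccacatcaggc
Syvn1, chr19:6046520-6046562, plus strand: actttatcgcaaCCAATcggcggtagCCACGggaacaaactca

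The ATF4 motif TGATGNAAN, searched on both strands, was present in 4 of 29 member promoters (13.8%; Herpud1, Trib3, Chac1 and Asns) and in 3.95% of all promoters. Matches that lie before the start are shown, those of the ATF4 targets Asns and Chac1 and of the degradation factor gene Herpud1. The Trib3 match lay after the start, at positions 13 to 21, and is not printed. Capitals again mark the fixed letters.
Asns, chr6:7693212-7693244, minus strand: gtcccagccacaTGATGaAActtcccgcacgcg
Chac1, chr2:119351036-119351068, plus strand: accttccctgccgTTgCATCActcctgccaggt
Herpud1, chr8:94386304-94386336, plus strand: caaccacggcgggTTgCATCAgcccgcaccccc
The end motifs of the first element, which overlap it, were common everywhere: CCACG was present in 79.3% of member promoters and 32.8% of all, and CCAAT in 72.4% and 37.4%. The XBP1 motif TGACGTGG was in 0 of the 29 windows and in 0.676% of all promoters. A match is a description of these letters only.

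The libraries differed in ways that bear on every comparison. Total counts were 827744 to 2965896 in the 10 batch 1 libraries and 14026193 to 45135933 in the 9 batch 2 libraries, and every group held both batches. Of adult PMN-MDSC, replicates 1 and 32, 2 and 33, and 3 and 34 resembled each other across batches. So did newborn PMN-MDSC replicates 2 and 37 and replicates 3 and 38. The chi-square of their counts divided by its degrees of freedom lay between 2.38 and 6.29. The 10 unmatched cross-batch pairs lay between 6.89 and 19.7. The 5 pairs were picked from these same counts, so the ranges describe them and do not test them. They may share a source, which the labels do not say, so counts without the batch 1 PMN-MDSC libraries are given beside the main ones. Levels are given as CPM, counts scaled to library size. In PMN-MDSC the 12 neutrophil markers summed to 10500 to 11200 CPM for adults and 102000 to 114000 for newborns, and the 12 monocyte markers to 7980 to 13300 in M-MDSC against 1100 to 1780 in PMN-MDSC. The list did not move as one: newborn PMN-MDSC were called higher for 10 of the 12 neutrophil markers and lower for 1. Mean Ly6g was 19.6 CPM in adult and 213 in newborn PMN-MDSC, while Csf3r was 2100 and 756 and Cxcr2 377 and 465. Markers of other cells moved with age as well: the 14 plasma cell markers in PMN-MDSC summed to 3170 to 4340 CPM in adults and 471 to 706 in newborns, and in M-MDSC to 1150 to 2820 and 316 to 364. The 14 were uneven. In adult PMN-MDSC the means were 1960 CPM for Ighm, 740 for Igkc and 450 for Irf4, but 94.4 for Jchain, 21.7 for Prdm1, 7.98 for Sdc1 and 0.053 for Tnfrsf17. Of 13 tested in M-MDSC, 12 were called lower in newborns and 1 higher. Mean Tnfrsf13b there was 60.3 CPM in adults and 141 in newborns. Tnfrsf17 was at 0 in both M-MDSC groups and Ighg2b at 0 in newborn M-MDSC. The 11 measured B cell markers summed to 3140 to 4990 against 708 to 871 CPM in PMN-MDSC, and the 9 measured granulocyte progenitor markers to 39 to 66.8 against 1070 to 1320. In M-MDSC the progenitor markers summed to 124 to 238 in adults and 2650 to 6780 in newborns. The 10 cell division genes summed to 145 to 284 CPM in all adult libraries and 1490 to 2610 in all newborn ones. The part of these cells in the results below was not tested, and in bulk samples fewer cells of a type and less RNA per cell cannot be told apart. Counts of Kdm5d, a Y-linked gene, were found in 0 of 9 adult and 10 of 10 newborn libraries, so age and sex cannot be told apart here.

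Newborn PMN-MDSC differed from adult PMN-MDSC in both directions. The ER membrane protein gene Ckap4, the amino acid synthesis gene Asns, the disulfide isomerase gene P4hb and the degradation genes Sel1l and Edem1 were higher in newborns. The feedback and death-linked genes Ppp1r15a and Ddit3, the isomerase gene Pdia4, the chaperone gene Hspa5 and the sensor gene Atf6 were lower. In all, 18 of 33 members were called by edgeR's quasi-likelihood test (adjusted p under 0.05 over all genes tested), where 47.7% of all genes were called. Of the members 8 were higher (27.1% of all genes) and 10 lower (20.5%), and their median log2 fold change was 0.05, against -0.05 over all genes. Without the batch 1 PMN-MDSC libraries 13 members were called, against 23.5% of all genes in that fit. The calls of Calr, Canx, Dnajb9, Ern1 and Eif2ak3 were lost there. Under scaling with DESeq2 size factors the median of all genes moved from -0.05 to -0.22, with 48.6% of all genes called. The split of members became 7 higher and 13 lower. Upper-quartile scaling gave a median of -0.29 and 48.7% called, with 7 members higher and 14 lower.

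In M-MDSC the same comparison called 14 of 33 members, against 30.2% of all genes. There 7 were higher in newborns (15.9% of all genes): P4hb, Pdia6, Creld2, Sec61b, Ssr1, Ckap4 and Sel1l. The other 7 were lower (14.3%): Hspa5, Herpud1, Syvn1, Ern1, Atf6, Ddit3 and Ppp1r15a. The median was 0.12 for members and 0.01 for all genes. With 3 adult libraries these calls lean on the spread estimated over all 4 groups: a fit on the M-MDSC libraries alone called 5 members, against 11.7% of all genes. Without adult M-MDSC replicate 3 the count was 9, against 24.4% of all genes. On leaving out the batch 1 PMN-MDSC libraries it was 11, against 17.7%, and Creld2, Ssr1 and Sel1l were lost.

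Both comparisons called the same 10 members: 4 were higher in newborns in both (P4hb, Sec61b, Ckap4 and Sel1l), 5 were lower in both (Hspa5, Herpud1, Atf6, Ddit3 and Ppp1r15a), and Ern1 moved in opposite directions. Of all genes, 21.1% were called in both. The sign was the same in 26 of 33 members, against 71.4% of all genes. A test of the difference of the age effects, M-MDSC minus PMN-MDSC, called 7 members, against 18.1% of all genes. The difference was positive for Calr, Canx, Pdia4 and Pdia6 (6.61% of all genes) and negative for Ckap4, Edem1 and Ern1 (11.5%), with a median of -0.05 for members and -0.06 for all genes. Without the batch 1 PMN-MDSC libraries 3 members were called for the difference, against 6.08% of all genes, and adjusted p (edgeR) was then 0.189 for Calr, 0.292 for Canx, 0.0688 for Pdia6 and 0.069 for Edem1. In neither cell type did age give a call for the remaining 11: Hsp90b1, Hyou1, Pdia3, Dnajb11, Dnajc3, Sdf2l1, Manf, Xbp1, Atf4, Trib3 and Chac1.

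**Figure D1:**
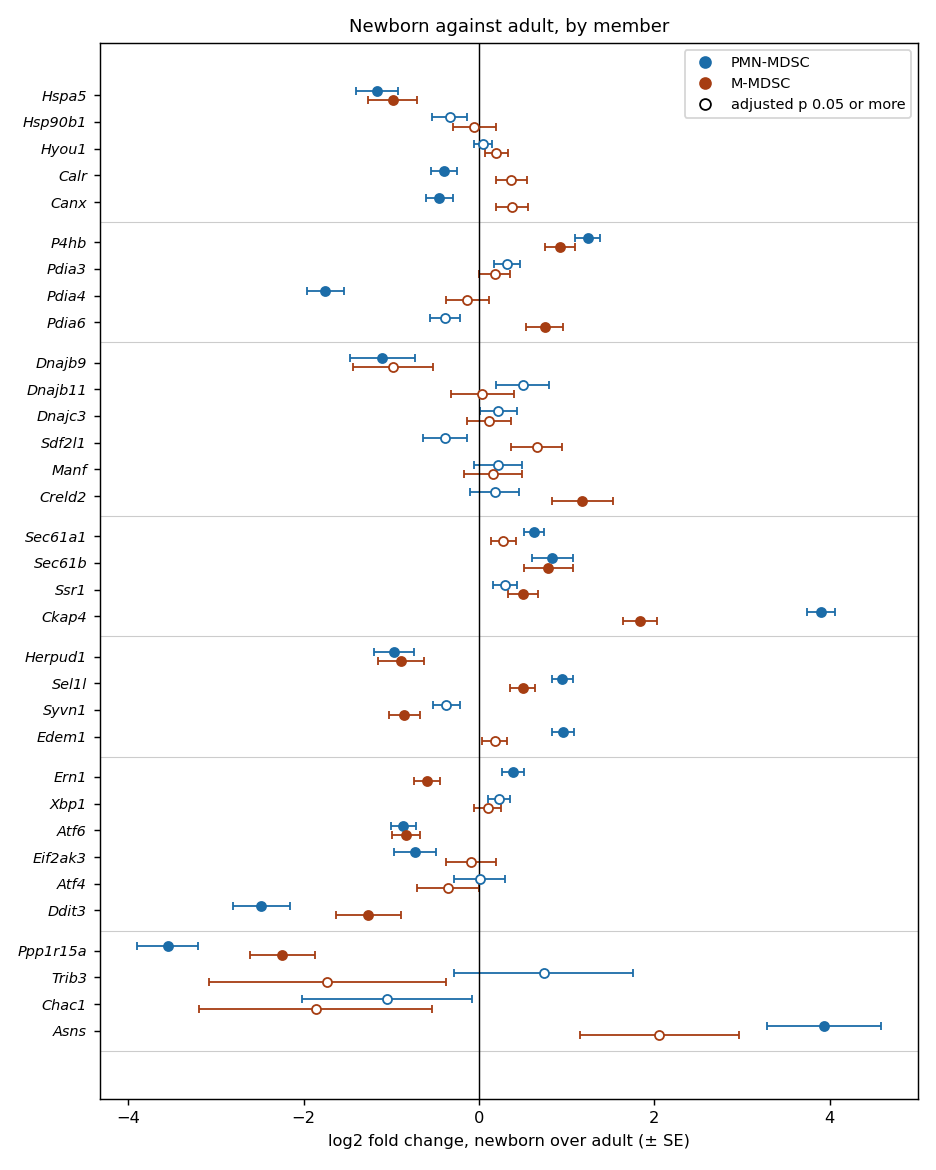
Log2 fold change of newborn over adult for each of the 33 members, grouped by role from chaperones at the top to ATF4 and CHOP targets at the bottom; points are edgeR estimates, whiskers SE, blue PMN-MDSC, brown M-MDSC, and open symbols an adjusted p of 0.05 or more. Ckap4 and Asns lie farthest right and Ppp1r15a farthest left among the PMN-MDSC points, and Ern1 is the member called on opposite sides of zero.

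Among the lumen chaperones, Hspa5 fell in newborns of both cell types. It encodes BiP, the ER HSP70 that holds unfolded chains and keeps the sensors inactive, and lies at chr2:34771970-34777547 (GRCm38, GENCODE M21). In adult PMN-MDSC its level was 450 CPM at the lowest, 793 at the median and 908 at the highest, and in newborn PMN-MDSC it was 268, 349, 321, 360 and 298 CPM. The M-MDSC levels were 979, 411 and 456 CPM in adults and 328, 226, 335, 365 and 302 in newborns. Newborn and adult values did not overlap in either cell type, but adult M-MDSC replicate 1 was more than double the other adult M-MDSC libraries. The log2 fold change was -1.16 ± 0.24 (SE, edgeR adjusted p = 5.46e-04) in PMN-MDSC and -0.98 ± 0.28 (edgeR adjusted p = 0.0122) in M-MDSC. Without that replicate the M-MDSC value was -0.49 with an edgeR adjusted p of 0.182.

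Hsp90b1, which encodes the ER HSP90 GRP94, did not pass the test in either cell type. Its adult PMN-MDSC level was 233 CPM at the lowest, 265 at the median and 345 at the highest, beside 210, 186, 253, 222 and 252 in newborns. The M-MDSC levels were 265, 207 and 147 CPM in adults and 230, 106, 196, 199 and 285 in newborns, so the ranges overlapped in both. The log2 fold changes were -0.33 ± 0.20 (edgeR adjusted p = 0.182) and -0.05 ± 0.24 (edgeR adjusted p = 0.913). The HSP70-like gene Hyou1 stood at 0.05 ± 0.10 and 0.20 ± 0.13, with neither called.

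Calr and Canx encode calreticulin and calnexin, the lectin chaperones of glycoproteins. Both were lower in newborn PMN-MDSC, by -0.40 ± 0.15 (edgeR adjusted p = 0.0383) and -0.45 ± 0.15 (edgeR adjusted p = 0.0183). In M-MDSC they stood at 0.37 ± 0.18 and 0.38 ± 0.18 and were not called, and the difference of the age effects was 0.77 ± 0.24 (edgeR adjusted p = 0.0304) for Calr and 0.82 ± 0.23 (edgeR adjusted p = 0.018) for Canx. These calls were close to the threshold. The PMN-MDSC call of Calr was lost on leaving out adult PMN-MDSC replicate 2 or 33, newborn PMN-MDSC replicate 2, 3 or 39, adult M-MDSC replicate 3 or newborn M-MDSC replicate 1, with values of -0.38 to -0.31. That of Canx was lost on leaving out adult PMN-MDSC replicate 2 or newborn PMN-MDSC replicate 2 or 3, with values of -0.44 to -0.37. Leaving out the batch 1 PMN-MDSC libraries gave -0.34 (edgeR adjusted p = 0.274) and -0.31 (edgeR adjusted p = 0.395). Calls of the difference were lost without any of 11 single libraries for Calr (0.60 to 0.78) and any of 5 for Canx (0.69 to 0.77), adult PMN-MDSC replicate 2, newborn PMN-MDSC replicates 2 and 3, adult M-MDSC replicate 3 and newborn M-MDSC replicate 3 for both.

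Protein disulfide isomerases form and reshuffle disulfide bonds, and their 4 members went different ways. P4hb, the classical isomerase, was higher in newborns of both cell types. In PMN-MDSC its adult level ran from 124 CPM over a median of 146 to 178, and its newborn level was 341, 358, 355, 375 and 354. Adult M-MDSC had 310, 249 and 393 CPM and newborn M-MDSC 492, 761, 620, 561 and 600. No newborn library overlapped the adults, at 1.24 ± 0.14 (edgeR adjusted p = 5.28e-07) in PMN-MDSC and 0.93 ± 0.17 (edgeR adjusted p = 3.91e-04) in M-MDSC.

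Pdia4 encodes ERp72, and its gene lies at chr6:47796141-47813430. Its level in adult PMN-MDSC was 118 CPM at the lowest, 194 at the median and 202 at the highest, and in newborn PMN-MDSC 50.9, 51.9, 46.9, 51.4 and 57.2. The adult M-MDSC levels were 53.7, 130 and 118 CPM and the newborn ones 82.7, 91.7, 89.4, 123 and 76.5. The PMN-MDSC groups were apart and the M-MDSC groups overlapped. The log2 fold change was -1.75 ± 0.21 (edgeR adjusted p = 1.88e-06) in PMN-MDSC and -0.13 ± 0.25 (edgeR adjusted p = 0.744) in M-MDSC, with a difference of 1.62 ± 0.33 (edgeR adjusted p = 0.00189).

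Pdia6 had adult PMN-MDSC levels of 55.9 CPM at the lowest, 70.3 at the median and 94.7 at the highest, beside 54.7, 66.6, 54.9, 59.4 and 46.2 in newborns. Its M-MDSC levels were 125, 82.2 and 83.4 CPM in adults and 136, 146, 205, 162 and 153 in newborns. Only the M-MDSC groups were apart. The M-MDSC change was 0.75 ± 0.21 (edgeR adjusted p = 0.0108) and the PMN-MDSC change -0.39 ± 0.17 (edgeR adjusted p = 0.0679), with a difference of 1.13 ± 0.27 (edgeR adjusted p = 0.00583). Leaving out adult M-MDSC replicate 3 gave 0.65 (edgeR adjusted p = 0.0561) and leaving out newborn M-MDSC replicate 3 gave 0.60 (edgeR adjusted p = 0.0528). Pdia3, the partner of calreticulin and calnexin, was called in neither cell type, at 0.32 ± 0.15 and 0.18 ± 0.18.

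**Figure D2:**
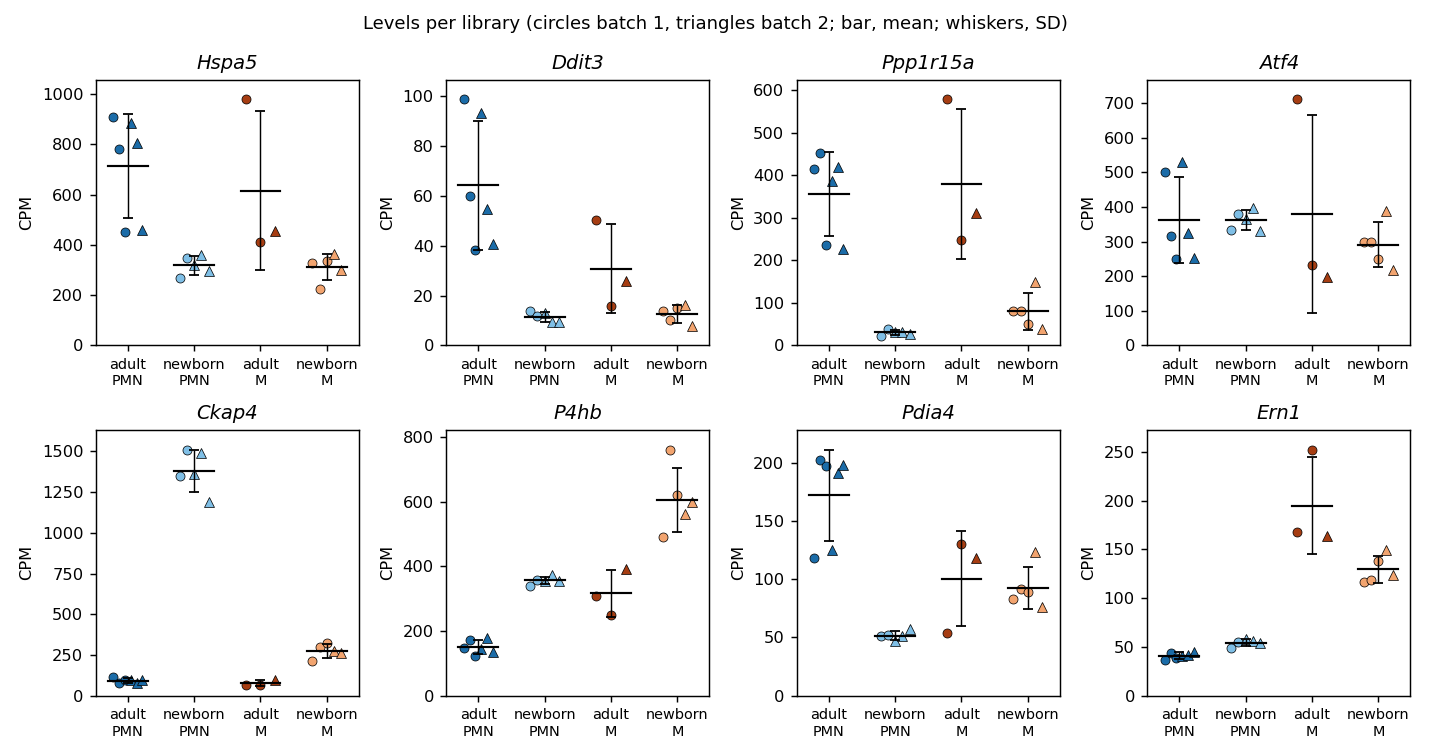
CPM of 8 members in each of the 19 libraries, 1 panel a gene with its own axis from 0; circles are batch 1, triangles batch 2, bars means and whiskers SD. Ckap4 separates newborn PMN-MDSC (1190 to 1510 CPM) from every other library, Ppp1r15a separates adults from newborns, and 1 adult M-MDSC library stands high for Hspa5, Ddit3, Ppp1r15a and Atf4.

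Of the 6 co-chaperones and small ER proteins, 1 was called in PMN-MDSC (47.7% of all genes) and 1 in M-MDSC (30.2%). Dnajb9, an HSP40 that restrains IRE1, was lower in newborn PMN-MDSC, with adult levels from 78 to 162 CPM and newborn levels from 51.5 to 65.8 (-1.10 ± 0.37, edgeR adjusted p = 0.0216). That call was lost without adult PMN-MDSC replicate 2 (-1.03, edgeR adjusted p = 0.0502) or newborn PMN-MDSC replicate 3 (-1.06, edgeR adjusted p = 0.0592), and without the batch 1 PMN-MDSC libraries (-1.02, edgeR adjusted p = 0.241). Creld2, a small ER stress-induced protein, was higher in newborn M-MDSC, at 11.1 to 22.7 against 5.81 to 8.29 CPM (1.18 ± 0.35, edgeR adjusted p = 0.0159). Without adult M-MDSC replicate 3 its adjusted p (edgeR) was 0.0645, and without the batch 1 PMN-MDSC libraries 0.0713. Dnajb11, Dnajc3, Sdf2l1 and Manf passed the test in neither.

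The translocon and ER membrane genes included the member with the smallest adjusted p in both age comparisons. Ckap4 encodes CLIMP-63, a membrane protein that shapes ER sheets, and lies at chr10:84526305-84534062. Its adult PMN-MDSC level was 75.7 CPM at the lowest, 94.6 at the median and 116 at the highest, and its newborn PMN-MDSC level was 1350, 1510, 1360, 1490 and 1190. In M-MDSC it was 66.9, 64.3 and 97.4 CPM in adults and 213, 299, 321, 275 and 264 in newborns. Newborns lay above adults without overlap in both cell types, and newborn PMN-MDSC lay above all other libraries. The log2 fold change was 3.90 ± 0.16 (14.9-fold, edgeR adjusted p = 2.48e-12) in PMN-MDSC and 1.84 ± 0.19 (3.58-fold, edgeR adjusted p = 1.12e-06) in M-MDSC. The difference was -2.06 ± 0.23 (edgeR adjusted p = 8.5e-06), and Ckap4 alone of the members kept its call in every alternative run for both age comparisons and the difference.

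Sec61a1 encodes the pore subunit of the translocon. It had adult PMN-MDSC levels of 104 CPM at the lowest, 116 at the median and 126 at the highest, and newborn levels of 167, 201, 165, 201 and 160. Adult M-MDSC had 195, 251 and 209 CPM and newborn M-MDSC 243, 319, 265, 241 and 252, which overlapped. The change was 0.63 ± 0.11 (edgeR adjusted p = 1.33e-04) in PMN-MDSC and 0.28 ± 0.14 (edgeR adjusted p = 0.14) in M-MDSC. The small subunit gene Sec61b was higher in both, by 0.84 ± 0.23 (edgeR adjusted p = 0.00519) and 0.79 ± 0.28 (edgeR adjusted p = 0.0394). The M-MDSC calls of Sec61b and of the translocon-associated Ssr1 (0.50 ± 0.17, edgeR adjusted p = 0.0282) were near the threshold and were lost without any of 13 and 10 single libraries. Without adult M-MDSC replicate 28 they were 0.58 and 0.31, with edgeR adjusted p of 0.162 and 0.175.

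ER-associated degradation returns misfolded proteins to the cytosol, and its members did not move together. Sel1l, the adaptor of the HRD1 ubiquitin ligase, had adult PMN-MDSC levels of 72.3 CPM at the lowest, 100 at the median and 108 at the highest, and newborn levels of 160, 185, 200, 196 and 196. In M-MDSC its levels were 115, 126 and 129 CPM in adults and 150, 155, 181, 219 and 176 in newborns. Newborns were above adults without overlap in both, at 0.95 ± 0.12 (edgeR adjusted p = 1.91e-06) and 0.50 ± 0.14 (edgeR adjusted p = 0.0118). Without adult M-MDSC replicate 1 the latter was 0.45 (edgeR adjusted p = 0.0552), and without newborn M-MDSC replicate 3 it was 0.42 (edgeR adjusted p = 0.0555). Without the batch 1 PMN-MDSC libraries it was 0.45 (edgeR adjusted p = 0.0562).

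Syvn1 encodes HRD1 itself and went the other way from its adaptor in M-MDSC. There it was 86.1, 114 and 116 CPM in adults and 73.8, 66.1, 57, 38.7 and 59.1 in newborns, without overlap (-0.85 ± 0.18, edgeR adjusted p = 0.00156). In PMN-MDSC its adult level ran from 116 CPM over a median of 130 to 165, beside 90.8, 118, 104, 112 and 96.2 in newborns (-0.37 ± 0.15, edgeR adjusted p = 0.0504). Herpud1, which recruits substrates to the ligase, was lower in newborns of both cell types, at -0.97 ± 0.23 (edgeR adjusted p = 0.00167) and -0.89 ± 0.26 (edgeR adjusted p = 0.0152). Its M-MDSC call was lost without adult M-MDSC replicate 1 (-0.80, edgeR adjusted p = 0.0563) or replicate 28 (-0.70, edgeR adjusted p = 0.0833).

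Edem1, a lectin that hands glycoproteins to degradation, was higher in newborn PMN-MDSC. Its adult PMN-MDSC level was 178 CPM at the lowest, 212 at the median and 244 at the highest, and its newborn level 369, 402, 416, 456 and 439. The adult M-MDSC levels were 413, 302 and 335 CPM and the newborn ones 349, 328, 381, 476 and 496. Only the PMN-MDSC groups were apart, at 0.96 ± 0.12 (edgeR adjusted p = 2.14e-06) against 0.18 ± 0.14 (edgeR adjusted p = 0.361), with a difference of -0.77 ± 0.18 (edgeR adjusted p = 0.00618).

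The sensors changed separately. Ern1, at chr11:106394650-106487852, had adult PMN-MDSC levels of 36.2 CPM at the lowest, 41.6 at the median and 45.2 at the highest, and newborn levels of 49.2, 55.3, 57.7, 55.7 and 54.5. In M-MDSC it was 168, 252 and 164 CPM in adults and 117, 119, 138, 149 and 124 in newborns. Newborns were thus higher in PMN-MDSC and lower in M-MDSC, without overlap in either. The changes were 0.39 ± 0.13 (edgeR adjusted p = 0.0153) and -0.59 ± 0.15 (edgeR adjusted p = 0.00521), and the difference was -0.99 ± 0.19 (edgeR adjusted p = 0.00149). The PMN-MDSC rise was not called with DESeq2 size factors or with upper-quartile scaling, where all genes shifted downwards, nor without the batch 1 PMN-MDSC libraries (0.44, edgeR adjusted p = 0.137) or newborn PMN-MDSC replicate 37 (0.35, edgeR adjusted p = 0.0534). The M-MDSC fall was -0.33 (edgeR adjusted p = 0.105) without adult M-MDSC replicate 3, the highest of the 3 adults.

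Atf6 was lower in newborns of both cell types. In PMN-MDSC its adult level was 107 CPM at the lowest, 124 at the median and 128 at the highest, and its newborn level 60.2, 65.7, 63, 73.1 and 69. Adult M-MDSC had 208, 228 and 159 CPM and newborn M-MDSC 136, 85.3, 127, 90.9 and 115. The groups did not overlap, at -0.86 ± 0.14 (edgeR adjusted p = 3.99e-05) and -0.83 ± 0.16 (edgeR adjusted p = 6.47e-04), and the difference of the age effects was 0.03 ± 0.21 (edgeR adjusted p = 0.951).

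Eif2ak3, the PERK gene, was spread widely among adult PMN-MDSC: 113 CPM at the lowest, 138 at the median and 300 at the highest, with the 300 and 296 CPM in replicates 1 and 32. Newborn PMN-MDSC had 105, 98.6, 124, 117 and 108 CPM, which overlapped the adults. The adult M-MDSC levels were 124, 93.4 and 86.3 CPM and the newborn ones 106, 93.6, 90.8, 89.6 and 93.7. The PMN-MDSC change of -0.73 ± 0.24 (edgeR adjusted p = 0.0189) became -0.53 without replicate 1 (edgeR adjusted p = 0.0708) and -0.48 without replicate 32 (edgeR adjusted p = 0.0835). It was also lost without newborn PMN-MDSC replicate 2 (-0.69, edgeR adjusted p = 0.0642) or 3 (-0.67, edgeR adjusted p = 0.0724), and without the batch 1 PMN-MDSC libraries (-0.62, edgeR adjusted p = 0.161).

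The transcription factor genes Xbp1 and Atf4 were called for age in neither cell type. Xbp1 was at 106 CPM at the lowest, 137 at the median and 164 at the highest in adult PMN-MDSC, and at 146, 169, 161, 175 and 150 in newborn PMN-MDSC. In M-MDSC it was 242, 220 and 296 CPM in adults and 258, 314, 281, 266 and 234 in newborns, so age groups overlapped in both (0.23 ± 0.13, edgeR adjusted p = 0.136, and 0.10 ± 0.15, edgeR adjusted p = 0.672). Atf4 ran from 250 CPM over a median of 321 to 531 in adult PMN-MDSC, and was 334, 379, 366, 398 and 330 in newborns. Adult M-MDSC had 711, 232 and 197 CPM and newborn M-MDSC 299, 300, 250, 388 and 219. The highest adults exceeded every newborn and the lowest lay below them, with changes of 0.01 ± 0.29 (edgeR adjusted p = 0.983) and -0.35 ± 0.35 (edgeR adjusted p = 0.479). Atf4 is known to be regulated largely at translation, which these counts do not measure.

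Ddit3 encodes CHOP, a death-linked factor downstream of ATF4, and lies at chr10:127290774-127296288. Its adult PMN-MDSC level was 38.4 CPM at the lowest, 57.3 at the median and 98.7 at the highest, and its newborn level 13.7, 11.7, 13, 9.35 and 9.28. The adult M-MDSC levels were 50.5, 15.8 and 26 CPM and the newborn ones 13.9, 10.3, 14.8, 16.1 and 7.65. The PMN-MDSC groups were apart by more than 20 CPM, while the M-MDSC groups overlapped. The changes were -2.48 ± 0.33 (edgeR adjusted p = 4.3e-06) and -1.26 ± 0.37 (edgeR adjusted p = 0.0145). Without adult M-MDSC replicate 1 the M-MDSC change was -0.79 (edgeR adjusted p = 0.137).

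Of the 4 targets of ATF4 and CHOP, Ppp1r15a was lower and Asns higher in newborns. Ppp1r15a encodes GADD34, which reverses eIF2 phosphorylation, and lies at chr7:45522916-45526268. Its adult PMN-MDSC level was 227 CPM at the lowest, 401 at the median and 453 at the highest, and its newborn level 22.4, 37.6, 32.3, 32.5 and 26.9. In M-MDSC it was 579, 247 and 312 CPM in adults and 81.3, 81.5, 51, 149 and 38.2 in newborns. Adults and newborns did not overlap in either, at -3.55 ± 0.35 (11.7-fold lower, edgeR adjusted p = 1.19e-07) and -2.24 ± 0.37 (4.71-fold lower, edgeR adjusted p = 1.52e-04).

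Asns, asparagine synthetase, was at 2.4 to 8.77 CPM in adult PMN-MDSC (4 to 268 counts a library) and at 84.3, 93.8, 85, 88.7 and 77.1 CPM in newborn PMN-MDSC. The PMN-MDSC groups were far apart, at 3.94 ± 0.65 (15.3-fold, edgeR adjusted p = 6.32e-05). Adult M-MDSC had 29, 3 and 0 counts of Asns, or 15.9, 1.25 and 0 CPM, and newborn M-MDSC 12.5, 24.4, 19.9, 18.2 and 7.73 CPM. These overlapped, and the change of 2.06 ± 0.91 was not called (edgeR adjusted p = 0.0976).

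Chac1, which degrades glutathione, ran from 11.2 CPM over a median of 15.7 to 18.6 in adult PMN-MDSC and was 9.3, 4.76, 6.8, 6.18 and 7.83 in newborn PMN-MDSC. These groups did not overlap, but the change of -1.05 ± 0.97 was not called (edgeR adjusted p = 0.396). In M-MDSC it had 35, 0 and 0 counts in adults and 2, 3, 2, 0 and 74 in newborns. Trib3, a pseudokinase that restrains ATF4, was at 0 to 11.5 CPM and 0 to 105 counts a library over all groups, with 21, 2 and 0 counts in adult M-MDSC. Replicate 1 thus held nearly all adult M-MDSC counts of both genes, and neither was called for age in either cell type.

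Adult libraries varied more than newborn ones by the median over members. The coefficient of variation over libraries had a median of 18.9% over members in adult PMN-MDSC and 9.41% in newborn PMN-MDSC. It was 25.2% in adult M-MDSC (3 libraries) and 21% in newborn M-MDSC (5 libraries). The same medians over all genes are not given, so this spread is not shown to be particular to the members. Replicates 1 and 32 of adult PMN-MDSC were the highest of the 3 pairs for 11 of 33 members, the share of an even split. The 11 were Hspa5, Dnajb9, Ssr1, Ckap4, Herpud1, Eif2ak3, Atf4, Ddit3, Trib3, Chac1 and Asns. Replicates 2 and 33 were highest for 17 members, among them Hsp90b1, Calr, Canx, P4hb, Pdia6 and Ppp1r15a, and replicates 3 and 34 for 5. Mean Ppp1r15a was 437 CPM in replicates 2 and 33 and 401 in 1 and 32. Ddit3, for example, was 98.7 and 93.1 CPM in replicates 1 and 32, 59.8 and 54.8 in 2 and 33, and 38.4 and 40.5 in 3 and 34. Adult M-MDSC replicate 1 was the highest of its group for 17 members, including Hspa5, Hsp90b1, Canx, Pdia3, Pdia6, Atf4, Ddit3, Ppp1r15a, Trib3, Chac1 and Asns. The share of counts in immunoglobulin genes was 0.324% and 0.338% in adult PMN-MDSC replicates 1 and 32. It was 0.45% and 0.468% in 2 and 33, and 0.566% and 0.584% in 3 and 34. In adult M-MDSC that share was 0.0866% in replicate 1, 0.379% in replicate 3 and 0.285% in replicate 28. A link between this share and the member levels was not tested. Replicates 1 and 32 of adult PMN-MDSC and replicate 1 of adult M-MDSC were singled out after their values were seen. How often each was the highest over all genes was not counted.

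**Figure D3:**
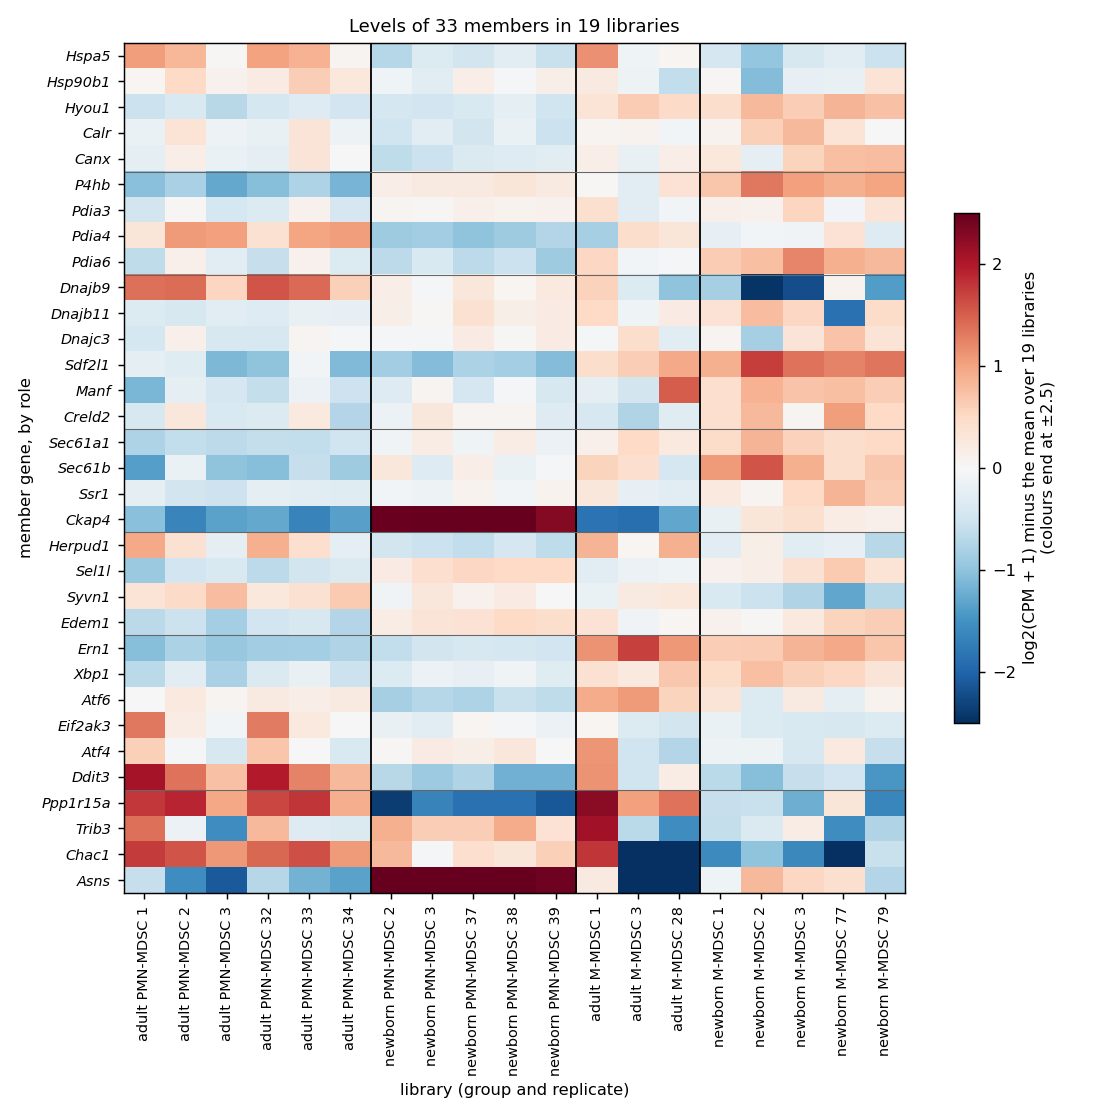
Log2(CPM + 1) of each member in each library minus that member's mean over the 19 libraries, with red above and blue below the mean; columns are libraries by group and rows members by role. Replicates 1 and 32 of adult PMN-MDSC share high Eif2ak3 and Ddit3, and adult M-MDSC replicate 1 is red for Trib3 and Chac1 where replicates 3 and 28 are not.

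The level summed over all members was 4671 ± 641 CPM (SD, n = 6) in adult PMN-MDSC, 5339 ± 286 (n = 5) in newborn PMN-MDSC, 5324 ± 981 (n = 3) in adult M-MDSC and 5334 ± 324 (n = 5) in newborn M-MDSC. Without Ckap4 the PMN-MDSC sums were 4578 ± 643 and 3959 ± 201. On a scale of mean CPM per kilobase of exon, Hspa5 was first in adult PMN-MDSC at 169, Atf4 in adult M-MDSC at 161 (rank 5 at 90.8 without adult M-MDSC replicate 1, where P4hb was first at 112), Ckap4 in newborn PMN-MDSC at 447 and P4hb in newborn M-MDSC at 212. Atf4 was second in both PMN-MDSC groups, at 154 and 153. Trib3 was last in all 4 groups.

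M-MDSC carried more of several chaperone and sensor transcripts than PMN-MDSC at both ages. In adults 15 of 33 members were called, against 29.1% of all genes: 11 were higher in M-MDSC (16.7% of all genes) and 4 lower (12.5%), with a median of 0.21 for members and -0.13 for all genes. The higher ones were Hyou1, P4hb, Sdf2l1, Manf, Sec61a1, Sec61b, Sel1l, Edem1, Ern1, Xbp1 and Atf6, and the lower ones Pdia4, Dnajb9, Eif2ak3 and Ddit3. In newborns 19 were called, against 42.0% of all genes: 15 higher in M-MDSC (18.7%) and 4 lower (23.4%), with a median of 0.29 against -0.13. The higher ones were Hyou1, Calr, Canx, P4hb, Pdia4, Pdia6, Sdf2l1, Manf, Sec61a1, Sec61b, Ssr1, Ern1, Xbp1, Atf6 and Ppp1r15a, and the lower ones Dnajb9, Ckap4, Syvn1 and Asns. Without the batch 1 PMN-MDSC libraries the counts were 8 in adults (15.1% of all genes) and 13 in newborns (27%), and those 8 were all higher in M-MDSC. Atf6 was then no longer called at either age, at 0.45 (edgeR adjusted p = 0.235) and 0.42 (edgeR adjusted p = 0.18). Other calls lost there were those of Pdia4, Dnajb9, Sec61b, Sel1l, Eif2ak3 and Ddit3 in adults and of Calr, Dnajb9, Sec61a1, Sec61b and Ssr1 in newborns.

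Ern1 was the member with the smallest adjusted p in adults, and its values above place every M-MDSC library, at 117 CPM or more, over every PMN-MDSC library, at 57.7 or less. M-MDSC exceeded PMN-MDSC by 2.24 ± 0.14 in adults (4.73-fold, edgeR adjusted p = 2.52e-09) and 1.25 ± 0.13 in newborns (2.38-fold, edgeR adjusted p = 5.59e-07). Its substrate Xbp1 was higher in M-MDSC by 0.91 ± 0.14 (edgeR adjusted p = 1.15e-04) and 0.77 ± 0.13 (edgeR adjusted p = 1.42e-04), again without overlap at either age.

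Hyou1, which encodes the chaperone GRP170, was at 99.6 CPM at the lowest, 118 at the median and 130 at the highest in adult PMN-MDSC and at 119, 116, 124, 136 and 115 in newborn PMN-MDSC. Adult M-MDSC had 207, 252 and 227 CPM and newborn M-MDSC 220, 284, 250, 294 and 271. It separated the cell types without overlap, at 0.99 ± 0.12 in adults (edgeR adjusted p = 5.53e-06) and 1.14 ± 0.11 in newborns (edgeR adjusted p = 1.9e-07). P4hb was higher in M-MDSC by 1.09 ± 0.15 (edgeR adjusted p = 3.74e-05) and 0.78 ± 0.14 (edgeR adjusted p = 2.56e-04), and Sec61a1 by 0.91 ± 0.13 (edgeR adjusted p = 3.77e-05) and 0.55 ± 0.12 (edgeR adjusted p = 0.00105). The newborn value of Sec61a1 was 0.39 without the batch 1 PMN-MDSC libraries (edgeR adjusted p = 0.121).

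Sdf2l1, a partner of the ER HSP40 proteins, was at 7.2 CPM at the lowest, 10.7 at the median and 15.9 at the highest in adult PMN-MDSC and at 8.75, 7.35, 9.23, 8.84 and 7.42 in newborn PMN-MDSC. The adult M-MDSC levels were 23, 26.1 and 33.3 CPM and the newborn ones 32, 57.7, 44.9, 40.9 and 44. The groups did not overlap at either age, at 1.35 ± 0.27 (edgeR adjusted p = 0.00117) and 2.40 ± 0.26 (edgeR adjusted p = 8.61e-07). Newborn M-MDSC also exceeded newborn PMN-MDSC in Pdia6, by 1.49 ± 0.18 (edgeR adjusted p = 2.58e-06), and lay below it in Ckap4, by -2.33 ± 0.16 (edgeR adjusted p = 2.54e-09). Pdia4 was lower in M-MDSC than in PMN-MDSC in adults (-0.76 ± 0.25, edgeR adjusted p = 0.0271) and higher in newborns (0.86 ± 0.22, edgeR adjusted p = 0.00368). The adult value of Pdia4 was -0.52 without adult M-MDSC replicate 1 (edgeR adjusted p = 0.0722) and -0.88 without replicate 28 (edgeR adjusted p = 0.0535).

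Other cell type calls were lost on leaving out single libraries. Manf, a secreted ER stress protein, was at 108 CPM in adult M-MDSC replicate 28 and at 31.3 and 27 in the other adults. Its adult difference of 1.04 ± 0.31 (edgeR adjusted p = 0.0157) was 0.09 without that library (edgeR adjusted p = 0.859). The adult calls of Ddit3 (-1.10 ± 0.37, edgeR adjusted p = 0.0329) and Eif2ak3 (-0.86 ± 0.29, edgeR adjusted p = 0.0341) were lost without PMN-MDSC replicate 1, at -0.95 (edgeR adjusted p = 0.0801) and -0.62 (edgeR adjusted p = 0.109), and likewise without adult PMN-MDSC replicate 32 or adult M-MDSC replicate 3 or 28. The adult call of Dnajb9 (-1.28 ± 0.47) was lost without any of 13 single libraries (-1.30 to -0.82) and that of Sel1l (0.39 ± 0.14) without any of 11 (0.31 to 0.42). That of Sec61b (0.93 ± 0.27) was lost without adult M-MDSC replicate 1 (0.76, edgeR adjusted p = 0.062) or 3 (0.84, edgeR adjusted p = 0.0533). In newborns Dnajb9 (-1.17 ± 0.39) was -1.04 without newborn M-MDSC replicate 79 (edgeR adjusted p = 0.0615) and -1.76 without replicate 77, Sec61b (0.88 ± 0.24) was 0.64 without newborn PMN-MDSC replicate 3 (edgeR adjusted p = 0.0594), and Ssr1 (0.53 ± 0.14) was 0.43 to 0.45 without newborn PMN-MDSC replicate 2 or 3 or newborn M-MDSC replicate 3. Ppp1r15a was higher in newborn M-MDSC than in newborn PMN-MDSC by 1.41 ± 0.33 (edgeR adjusted p = 0.00228).

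**Figure D4:**
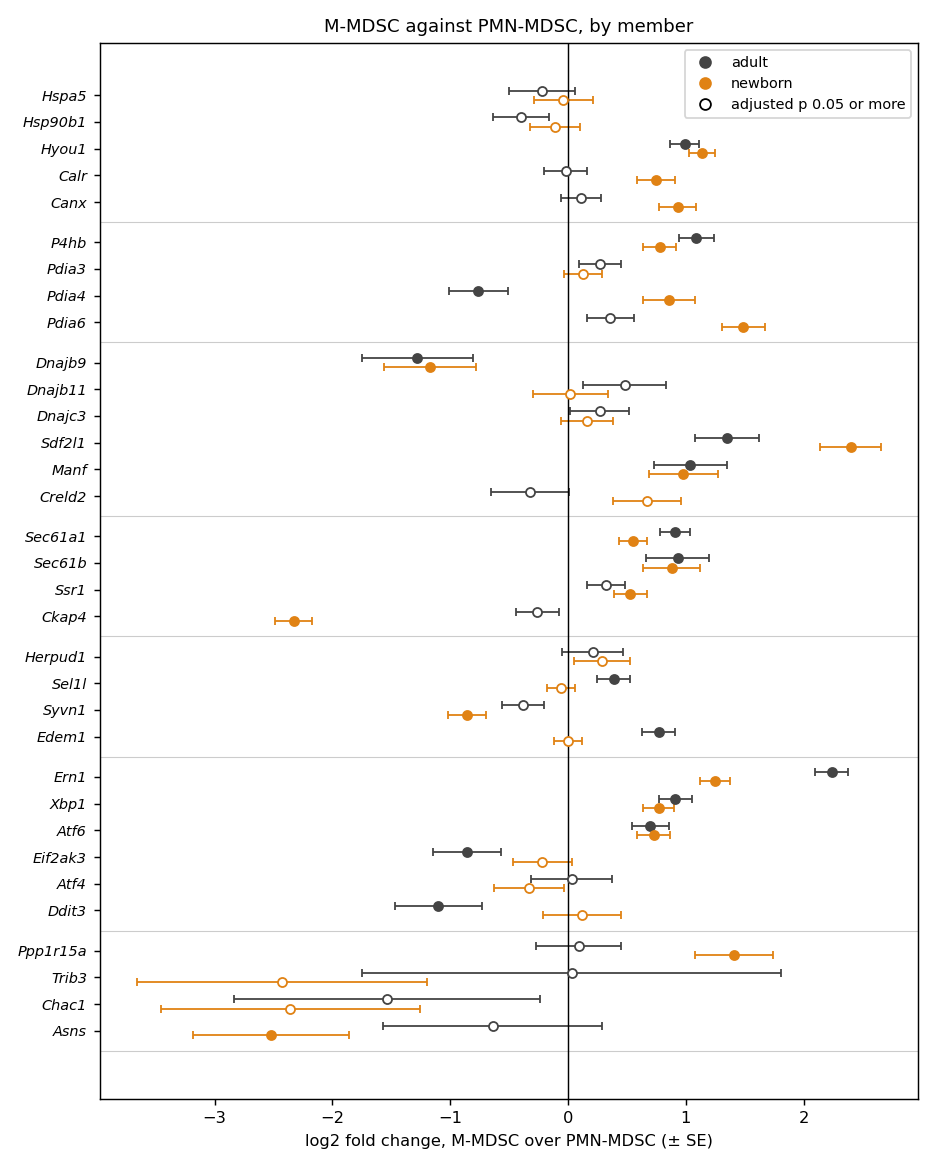
Log2 fold change of M-MDSC over PMN-MDSC for each member in adults (grey) and newborns (orange), with SE whiskers and open symbols for an adjusted p of 0.05 or more; rows are grouped by role. Ern1, Xbp1, Atf6, Hyou1, P4hb and Sdf2l1 lie right of zero at both ages, Ckap4 lies far left in newborns and was not called in adults, and Pdia4 is called on opposite sides.

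The members grouped by promoter letters were set beside these values. Of the 8 with an ER stress response element, 0 were higher and 3 lower in newborn PMN-MDSC (Hspa5, Calr and Canx), with a median log2 fold change of -0.38. Of the 21 other matched members, 7 were higher and 6 lower, with a median of 0.30. Of all genes, 27.1% were called higher and 20.5% lower. The calls of Calr and Canx were lost without the batch 1 PMN-MDSC libraries (edgeR adjusted p = 0.274 and 0.395). In newborn against adult M-MDSC the 8 gave 2 higher (Pdia6 and Creld2) and 2 lower (Hspa5 and Syvn1), with a median of 0.24. The 21 others gave 5 higher and 4 lower there, with a median of 0.04. Of all genes, 15.9% were called higher and 14.3% lower. The M-MDSC calls of Pdia6, Creld2 and Hspa5 were lost on leaving out single libraries. A link between these letters and the levels was not tested. Of the 4 with the ATF4 motif, Asns was higher and Herpud1 lower in newborn PMN-MDSC.

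Related genes outside the list were described by lists of ER genes. Each count below is to be read beside the shares of all genes called. These were 27.1% higher and 20.5% lower in newborn PMN-MDSC (median -0.05). In newborn M-MDSC they were 15.9% higher and 14.3% lower (median 0.01). Of 21 other chaperones and folding enzymes tested, 7 were higher and 6 lower in newborn PMN-MDSC (median 0.20) and 6 higher and 1 lower in newborn M-MDSC (median 0.37). The ER oxidase genes went opposite ways. Ero1l rose from 45.5 ± 5.07 to 334 ± 37.1 CPM in PMN-MDSC (SD; log2 2.87 ± 0.15, edgeR adjusted p = 4.95e-11) and by 1.52 ± 0.19 in M-MDSC. Ero1lb fell from 206 ± 35.7 to 30.5 ± 4.65 CPM in PMN-MDSC (-2.76 ± 0.17, edgeR adjusted p = 3.37e-10) and changed by -1.32 ± 0.19 in M-MDSC. Both were called in both cell types.

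Of 27 other degradation and stress regulators, 12 were higher and 1 lower in newborn PMN-MDSC (median 0.15), and 5 higher and 4 lower in newborn M-MDSC (median 0.04). Among them Ppp1r15b, the constitutive counterpart of Ppp1r15a, was higher in newborn PMN-MDSC by 1.47 ± 0.13 (edgeR adjusted p = 3.44e-08) and stood at -0.04 ± 0.16 in M-MDSC (edgeR adjusted p = 0.873). Vcp, the segregase that pulls proteins out of the ER, was higher in newborns of both cell types, by 1.00 ± 0.12 (edgeR adjusted p = 1.17e-06) in PMN-MDSC and 0.86 ± 0.15 (edgeR adjusted p = 2.26e-04) in M-MDSC. The ligase gene Stub1 was also higher in both, by 1.09 ± 0.21 (edgeR adjusted p = 2.44e-04) and 1.41 ± 0.26 (edgeR adjusted p = 5.02e-04).

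Of 22 translocon and signal recognition genes, 6 were higher and 5 lower in newborn PMN-MDSC (median 0.05) and 2 higher and 0 lower in newborn M-MDSC (median 0.24). Ssr2 was higher in both, by 0.74 ± 0.17 (edgeR adjusted p = 0.00168) and 1.25 ± 0.22 (edgeR adjusted p = 2.49e-04), as was Srp68, by 0.42 ± 0.16 (edgeR adjusted p = 0.0358) and 0.54 ± 0.19 (edgeR adjusted p = 0.0426). Spcs2 was called in PMN-MDSC at 0.59 ± 0.14 (edgeR adjusted p = 0.00187) and stood at 0.29 ± 0.17 in M-MDSC (edgeR adjusted p = 0.219). Of 17 N-glycosylation genes, 6 were higher and 3 lower (median 0.35), and 6 higher and 0 lower in M-MDSC (median 0.39). The oligosaccharyltransferase subunit genes Rpn1, Rpn2 and Ddost were called higher in newborns of both cell types. In PMN-MDSC and M-MDSC, Rpn1 changed by 1.39 ± 0.19 and 0.85 ± 0.23, Rpn2 by 0.50 ± 0.14 and 1.02 ± 0.17, and Ddost by 0.85 ± 0.18 and 0.95 ± 0.22.

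Of 19 genes of COPII transport from ER to Golgi, 9 were higher and 1 lower in newborn PMN-MDSC (median 0.39) and 8 higher and 1 lower in newborn M-MDSC (median 0.42). The cargo receptor gene Surf4, the coat gene Sec13 and the retrieval receptor gene Kdelr2 were called higher in newborns of both cell types. In PMN-MDSC and M-MDSC, Surf4 changed by 1.16 ± 0.12 and 0.42 ± 0.14, Sec13 by 0.91 ± 0.18 and 1.09 ± 0.23, and Kdelr2 by 1.27 ± 0.19 and 0.90 ± 0.23. The cell division genes and granulocyte progenitor markers given above rose in the same newborn libraries, and their part was not tested.

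Of 31 other integrated stress response genes and ATF4 targets, 6 were higher and 15 lower in newborn PMN-MDSC (median -0.57, against -0.05 for all genes), and 6 higher and 3 lower in newborn M-MDSC (median -0.04, against 0.01). Atf3 fell from 443 ± 227 to 18.1 ± 7.47 CPM in PMN-MDSC (-4.62 ± 0.51, edgeR adjusted p = 5.26e-07) and was also lower in newborn M-MDSC (-1.54 ± 0.50, edgeR adjusted p = 0.0252). Cebpb fell in PMN-MDSC (-1.76 ± 0.24, edgeR adjusted p = 6.74e-06) and stood at -0.64 ± 0.27 in M-MDSC (edgeR adjusted p = 0.0807). The serine synthesis gene Psat1 was lower in newborn PMN-MDSC (-0.57 ± 0.21, edgeR adjusted p = 0.0331), while in M-MDSC it rose from 14 ± 3.47 to 102 ± 15.2 CPM (2.83 ± 0.27, edgeR adjusted p = 5.23e-07), and the mTOR inhibitor gene Ddit4 fell from 105 ± 59.2 to 6.38 ± 4.37 (-4.31 ± 0.48, edgeR adjusted p = 2.48e-06) and was lower in newborn PMN-MDSC too (-1.93 ± 0.38, edgeR adjusted p = 3.65e-04). These lists are described by their counts and medians, with no test of a list as a whole.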

How the data were processed

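Per the labels' protocols, a total RNA kit was used and reads were single-end and 50 bp long. The authors' table holds estimated counts per gene, deposited as whole numbers. RSEM 1.2.3, genome build mm10 and DESeq2, the last with no role given, are named per the submitters' processing notes. With the aligner, annotation release and strand setting not given in the sources used here, reads of a gene and an antisense partner cannot be told apart.

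The members and lists were chosen with earlier results of these data known. All 19 libraries were fitted together in edgeR 4.0.16 (R 4.3.3; TMM scaling, filterByExpr, quasi-likelihood F test, 14 residual degrees of freedom) with group and batch as terms, and p-values were adjusted by Benjamini-Hochberg over 12943 genes. The batch term called 20 genes and 0 members. CPM use TMM-scaled library sizes. On simulated data of the PMN-MDSC age comparison (12194 genes), 81.6% of genes lowered by 1 on the log2 scale and 98% of those raised by 1 were called, and 0.075% of unchanged genes. The simulation drew every library independently, gave all genes the same dispersion and changed a small set of well-counted genes. The real comparison called 47.7% of genes and holds libraries that may share a source, so these rates need not hold for it. Gene positions and exon lengths are from GENCODE M21 (GRCm38). Library values are given for the 8 called members with the smallest adjusted p in each age comparison and the 5 in each other. They are also given for Hspa5, Hsp90b1, Xbp1, Atf4, Atf6, Ddit3, Ern1 and Eif2ak3. Adult PMN-MDSC values are mostly shortened to the lowest, the median and the highest. For up to 2 genes of each other list and age comparison, fold changes are given, with mean CPM for some. One gene that this rule names is not reported here. Of those lists, Pdia5, Fkbp11, Bag2, Creb3l1, Cth, Stc2, Vldlr and Kdelr3 did not pass the filter on low counts.

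Marker lists were summed as CPM. In the 4 groups in the order adult PMN-MDSC, newborn PMN-MDSC, adult M-MDSC and newborn M-MDSC, erythroid markers ranged over 201 to 505, 3100 to 5600, 69.6 to 538 and 41.3 to 2890, macrophage markers over 1710 to 3850, 1750 to 2240, 788 to 1010 and 501 to 573, dendritic cell markers over 2840 to 3330, 214 to 357, 1400 to 1850 and 62.6 to 300, and T and NK cell markers over 63.6 to 147, 43.7 to 72.1, 115 to 331 and 24.1 to 66.7. Alternatives were other scalings, filters, tests (DESeq2 1.42.0, limma 3.58.1), batches, groups fitted and single libraries left out.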

Additional observations from a re-analysis of the deposited data

Results flagged for a closer look

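The age effect, newborn minus adult on the log2 scale, differed between the cell types by the test of the difference itself for 7 members. M-MDSC minus PMN-MDSC, it was 0.77 for Calr, 0.82 for Canx, 1.62 for Pdia4, 1.13 for Pdia6, -2.06 for Ckap4, -0.77 for Edem1 and -0.99 for Ern1. All 7 had the same sign in both batches, but PMN-MDSC libraries of the 2 batches may share sources, so the batches may not be independent. Batch 2 held 1 adult M-MDSC library. Batch 1 alone called 1 member for the difference, against 3.41% of all genes.

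Single libraries stood apart in 2 of the 99 sets of values examined, where chance alone marks about 1 in 20. Dnajb11 was at 8.96 CPM in newborn M-MDSC replicate 77 (191 counts), and at 45.5 to 60.3 in the other 4 libraries of that group. Eif2ak3 was at 106 CPM in newborn M-MDSC replicate 1, and at 89.6 to 93.7 in the others.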

How the results depend on the processing

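Members called in all alternatives run numbered 10 of 18 for age in PMN-MDSC (Hspa5, P4hb, Pdia4, Ckap4, Sel1l, Edem1, Atf6, Ddit3, Ppp1r15a and Asns), 1 of 14 for age in M-MDSC and 1 of 7 for the difference (Ckap4 in both), 5 of 15 for cell type in adults (Hyou1, P4hb, Sec61a1, Ern1 and Xbp1) and 8 of 19 in newborns. The same tally over all genes was not taken. Batch 1 libraries alone called 11 members for age in PMN-MDSC (31.4% of all genes) and 8 for age in M-MDSC (27.8%). They called 1 for the difference (3.41%) and 7 for cell type in adults (11.4%). No count is given for M-MDSC in batch 2 alone, where adults had 1 library. A fit of the compared groups alone called 5 for age in M-MDSC (11.7% of all genes) and 25 for age in PMN-MDSC (65.9%). It was not run for the difference, which needs all 4 groups. Without the batch 1 PMN-MDSC libraries the difference called 3 (6.08% of all genes) and the adult cell type comparison 8 (15.1%). The cause of these moves was not tested. Each such fit held fewer libraries, yet the fit of the PMN-MDSC groups alone called more members than the main fit.

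Leaving out 1 library at a time gave 14 to 20 for age in PMN-MDSC (36.2% to 53.5% of all genes). For age in M-MDSC it gave 9 to 14 (22.4% to 33.1%), with 9 without adult M-MDSC replicate 3. It gave 5 to 9 for the difference (13.4% to 19.8%). For cell type it gave 10 to 16 in adults (16.9% to 35.0%) and 17 to 20 in newborns (33.2% to 47.7%). The replicate block, with the number in the labels as a block in batch 1, called 10 for age in PMN-MDSC (30.6% of all genes). It called 7 for age in M-MDSC (25.3%), 2 for the difference (5.08%) and 7 for cell type in adults (13.3%). Same-numbered libraries deviated together with r of -0.0472 to 0.182 over 12 pairs, against -0.182 to 0.075 for other pairs, and 9 of 10 libraries correlated best with their own number, a hint of pairing from the data and not from the design. Since some same-numbered pairs did not deviate together and the labels tie no number to a shared source, the numbers were not taken to pair the libraries. Limma-voom with the matched PMN-MDSC libraries as a block (correlation 0.812) called 13 for age in PMN-MDSC, against 33.3% of all genes. The split for age in PMN-MDSC was 7 higher and 13 lower with DESeq2 size factors (48.6% of all genes called) and with the DESeq2 Wald test (52.9%). It was 7 and 14 with upper-quartile scaling (48.7%), which moved the median of all genes to -0.29.

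Some members changed sign. Without adult M-MDSC replicate 1, Chac1 gave 7.19 for age in M-MDSC and 8.28 for the difference, fitted values against adults with 0 counts and no bound on a fold. Over the single libraries left out, Chac1 ranged from -3.04 to 7.19 and from -2.06 to 8.28. The difference for Asns was 7.36 in batch 2, where the adult M-MDSC library had 0 counts, and ranged from -2.94 to 2.27 over left-out libraries. Atf4 in adult M-MDSC against PMN-MDSC was -0.81 without adult M-MDSC replicate 1 (edgeR adjusted p = 0.0394), in a range of -0.81 to 0.41. For Trib3, Chac1 and Asns, 1 count was worth up to 1.1 CPM in the shallowest library and 0.02 in the deepest. Their zeros were not confined to shallow libraries: adult M-MDSC replicate 28, with a total of 16896783 counts, had 0 counts of each.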
